A study of Rattus norvegicus with 12 samples.

Results

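The mitochondrial carriers of the Slc25 family were examined in the kidneys of 12 male Zucker rats. The kidney RNA was hybridised to 12 arrays of the type Affymetrix Rat Genome 230 2.0. The members were all genes whose symbol begins with Slc25a on probe sets with a single annotated symbol, which gave 40 of the 14217 genes named on the array, on 58 probe sets. The 4 groups held 3 rats each: obese rats fed rosiglitazone, obese rats fed control diet, lean rats fed rosiglitazone and lean rats fed control diet. Control diet was ground chow, and rosiglitazone was mixed into it at 3 mg/kg body weight for 12 weeks. The labels give neither the leptin receptor genotype nor the age of the rats, and no kidney region. Obese Zucker rats are a model of obesity and insulin resistance that arises from an inherited defect of the leptin receptor, and rosiglitazone is a glucose-lowering drug that activates the nuclear receptor PPAR gamma. Nothing in the labels says how the rats of a group were housed or whether RNA was pooled. The study had as many arrays as rats in each group, and an array is called a rat here although the labels do not tie each array to a single animal, so p-values measure the spread between these samples.

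Slc25 carriers are small proteins of the inner mitochondrial membrane that exchange nucleotides, phosphate, organic acids, amino acids and cofactors between the cytosol and the matrix. They link the energy use of the cell, amino acid breakdown and fatty acid oxidation to the mitochondrion. The kidney tubule, above all its proximal segment, is dense in mitochondria and draws its energy mainly from fatty acids and organic acids. A few family members sit elsewhere, such as Slc25a17 in peroxisomes and Slc25a46 in the outer mitochondrial membrane.

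Each gene is given by its probe set of highest mean, and values are deposited signals on a linear scale, whose level depends on the probes and is therefore not compared between genes. Of the 40 genes, 34 passed the filter on dim probe sets and were tested. The other 6, Slc25a18, Slc25a21, Slc25a31, Slc25a32, Slc25a41 and Slc25a53, are named with their signals only. A change is called where the adjusted p from limma's moderated test across all 18625 retained probe sets, with Benjamini-Hochberg adjustment, is under 0.05. Log2 changes are differences of log2(signal + 16), which understates the change of dim probe sets, and are given with their standard error (SE). All 12 arrays had the same trimmed mean, between 500.12 and 500.15, and pairs of arrays correlated at 0.9352 to 0.9787. A control transcript of a bacterial phage gene, the cre spike-in, split the arrays in 2 classes. Its signal lay at 25234 to 26491 in obese control 1, lean rosiglitazone 1 and 2, and lean control 1 and 2, and at 15990 to 20764 in the other 7 arrays, among them all 3 obese rosiglitazone arrays.

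Promoters are shown for Slc25a15 and Slc25a24, whose signals differed between obese and lean rats on both diets, and for Slc25a20. Of the 34 tested carriers, Slc25a20 had the smallest p for a difference in rosiglitazone effect between body types. That difference was not called (adjusted p = 0.987, moderated test). RefSeq (build GRCr8) gave 35 promoters for 34 of the 40 genes, 2 of them for Slc25a48, and none for Slc25a30. Each runs from 250 bases before to 50 bases after the annotated start and is printed on the gene's strand, with capitals marking GC boxes on either strand (GGGCGG or, read on the printed strand, CCGCCC).
Slc25a15, chr16:76336620-76336919, plus strand: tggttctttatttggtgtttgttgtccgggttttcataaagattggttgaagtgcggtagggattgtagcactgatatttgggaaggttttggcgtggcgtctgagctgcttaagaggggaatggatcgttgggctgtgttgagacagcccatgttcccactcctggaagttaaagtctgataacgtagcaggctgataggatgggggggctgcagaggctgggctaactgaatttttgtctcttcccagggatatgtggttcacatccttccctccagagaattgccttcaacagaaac
Slc25a24, chr2:199449175-199449474, plus strand: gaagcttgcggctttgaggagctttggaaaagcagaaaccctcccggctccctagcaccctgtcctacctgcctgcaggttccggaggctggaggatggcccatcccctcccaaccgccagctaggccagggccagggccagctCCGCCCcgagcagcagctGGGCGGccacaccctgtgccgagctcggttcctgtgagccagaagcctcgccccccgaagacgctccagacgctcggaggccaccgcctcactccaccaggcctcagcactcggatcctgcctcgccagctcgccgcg
Slc25a20, chr8:118243323-118243622, plus strand: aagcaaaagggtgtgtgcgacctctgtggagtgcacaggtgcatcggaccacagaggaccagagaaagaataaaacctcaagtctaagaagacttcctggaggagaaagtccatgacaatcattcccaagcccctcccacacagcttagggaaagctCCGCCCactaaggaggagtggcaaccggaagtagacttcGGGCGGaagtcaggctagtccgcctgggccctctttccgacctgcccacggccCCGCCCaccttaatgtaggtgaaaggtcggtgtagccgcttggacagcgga
The Slc25a15 window held no GC box at 48.3% G and C, the Slc25a24 window held 2 at 68.7% and the Slc25a20 window held 3 at 56.7%. A GC box stood in 25 of the 35 promoters of Slc25a genes (71.4%), against 33.1% of all 33469 promoters of the same length. The other motifs searched, on both strands, were CCAAT (in 54.3% of the Slc25a promoters and 37.5% of all), the nuclear receptor element AGGTCA (14.3% and 16.2%) and 2 copies of that element in one direction 1 base apart (in 0 of 35, and in 0.0538% of all), which overlap the single element by construction. The Slc25a15 window held 1 CCAAT, and the windows of Slc25a24 and Slc25a20 held none of these.

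In obese against lean kidneys, the ornithine carrier Slc25a15 and the kidney carrier Slc25a30 fell on either diet, by the probe set used for each. The calcium-regulated ATP-Mg/phosphate carrier Slc25a24 rose on either diet. In the mean over its probe sets Slc25a15 was not called on control diet (adjusted p = 0.419) or on rosiglitazone (0.136). The call for Slc25a24 on control diet was lost without any one of 4 of the 6 arrays. Over both diets 9 of the 34 tested genes were called, 3 higher and 6 lower, which is 26.5% of them, against 16.3% of all 10524 genes tested in the same way (8.6% higher and 7.73% lower). On control diet 3 of 34 were called (1 higher, 2 lower), 8.82% against a background of 5.51% (2.42% higher and 3.09% lower). On rosiglitazone 5 of 34 were called (1 higher, 4 lower), 14.7% against 6.02% (2.88% higher and 3.15% lower). The median log2 change of the 34 genes was -0.12 over both diets, against 0.03 for all genes, and 25 of 34 estimates were below 0 (73.5%), against 45.4% of all genes. On control diet the median was -0.14 (all genes 0.02), with 70.6% of estimates below 0 against 47.2% of all genes. On rosiglitazone it was -0.09 (all genes 0.03), with 64.7% below 0 against 45.5%. Obese and lean rats did not overlap within a diet for 14 of the 34 genes on control diet (41.2%, against 26.8% of all genes), for 9 on rosiglitazone (26.5% against 25.6%) and for 5 within both diets (14.7% against 11.4%), namely Slc25a15, Slc25a23, Slc25a24, Slc25a30 and Slc25a38. These comparisons share arrays, so the values over both diets are not a separate set of rats.

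**Figure D1:**
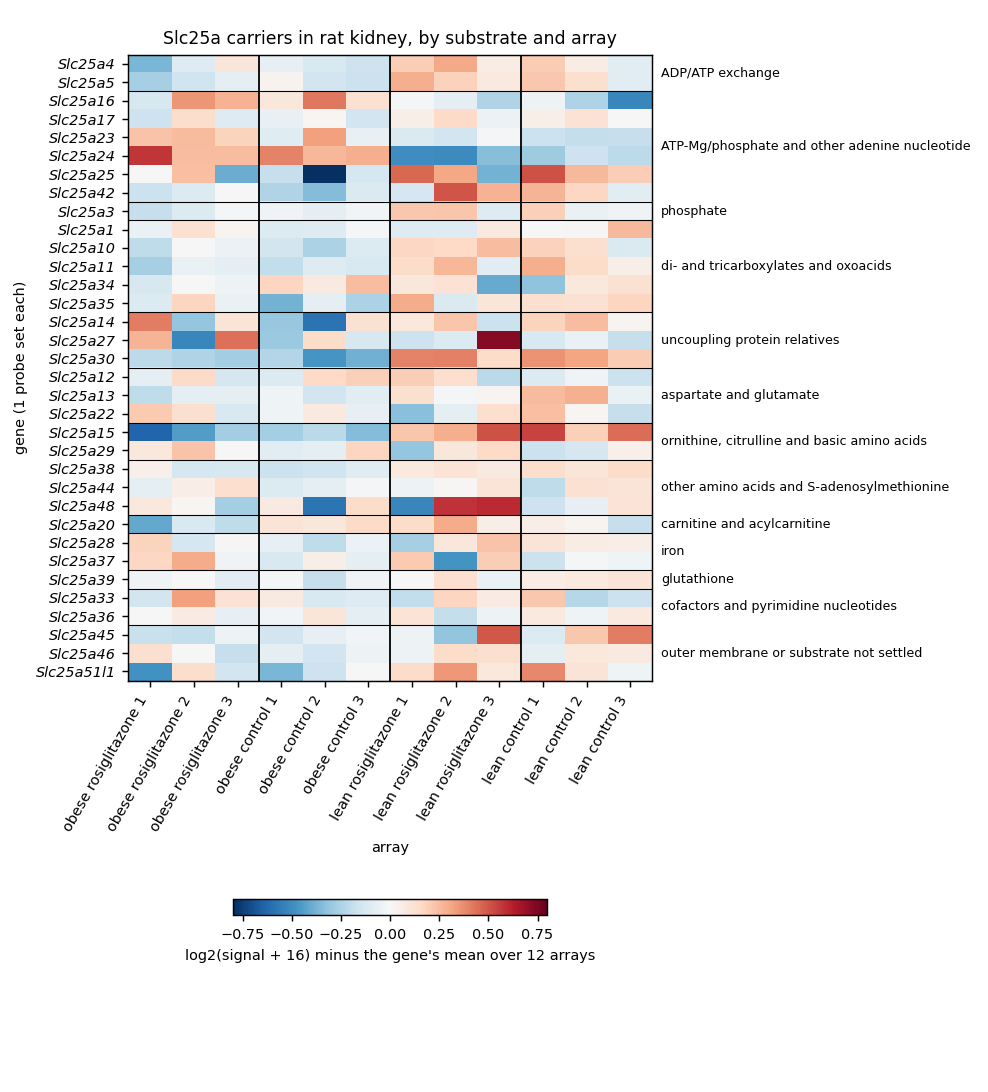
Each row is 1 tested Slc25a gene, grouped by substrate, and each column 1 array; colour is log2(signal + 16) minus the gene's mean over the 12 arrays, red above and blue below. The rows of Slc25a15 and Slc25a30 are blue in all 6 obese rats and red in all 6 lean rats, and the row of Slc25a24 is the other way round.

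The carriers of ornithine and basic amino acids were Slc25a15 and Slc25a29. Slc25a15 brings ornithine into the matrix in exchange for citrulline, a step of the urea cycle and of ornithine breakdown, and its loss in humans causes hyperornithinaemia. The signals of Slc25a15 (gene ID 306574) were 836, 954 and 1073 in obese rosiglitazone rats and 1082, 1121 and 1026 in obese control rats, against 1523, 1598 and 1869 in lean rosiglitazone rats and 1906, 1490.3 and 1786 in lean control rats. Every obese rat lay below every lean rat. On control diet Slc25a15 fell by 0.67 (SE 0.12, adjusted p = 0.00693) on the log2 scale, and on rosiglitazone by 0.79 (SE 0.12, adjusted p = 0.00242). Over both diets it fell by 0.73 (SE 0.086, adjusted p = 0.000105), and in linear terms it fell by 39.7%.

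Slc25a15 had 6 probe sets, the most of any member, and they did not give the same size of change. Over both diets the 4 other tested ones had log2 changes between -0.31 and -0.09, all below 0, of which 1 was called (-0.31, adjusted p = 0.0214), and the remaining one was too dim to test. The mean over the probe sets gave -0.30 (adjusted p = 0.0537) over both diets, -0.22 (0.419) on control diet and -0.38 (0.136) on rosiglitazone, so the call for Slc25a15 rests on the choice of probe set. Slc25a29, a carrier of arginine, lysine and other basic amino acids, was not called, at 0.11 over both diets (SE 0.099, adjusted p = 0.526). Ornithine aminotransferase (Oat), the matrix enzyme that breaks down ornithine, was lower too. Its mean signal was 9973 ± 678 in obese rosiglitazone rats and 10802 ± 875 in obese control rats, against 15149 ± 1736 in lean rosiglitazone rats and 14045 ± 2805 in lean control rats (SD, n = 3 each). Oat fell by 0.48 on the log2 scale over both diets (SE 0.093, adjusted p = 0.00373).

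**Figure D2:**
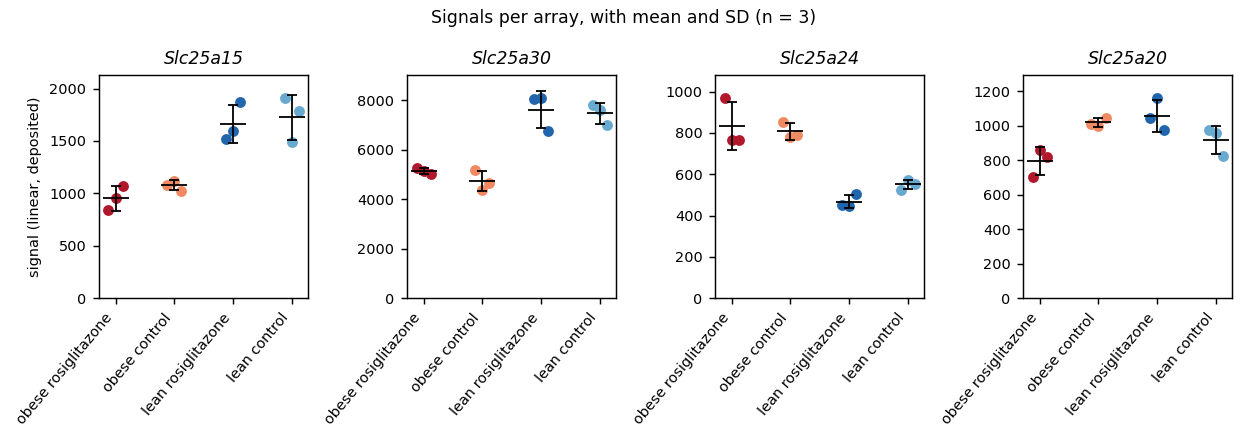
Deposited signals (linear axis from 0) of 4 carriers, 1 point per array, with a horizontal bar for the group mean and a vertical bar for its SD (n = 3). Slc25a15 and Slc25a30 are lower and Slc25a24 higher in the obese groups on both diets, and Slc25a20 is lowest in obese rosiglitazone rats.

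The relatives of the uncoupling proteins were Slc25a14, Slc25a27 and Slc25a30. Over both diets 1 of the 3 was called (33.3%, against 16.3% of all genes). Slc25a30, the kidney mitochondrial carrier protein, was first described in mouse kidney. Its signals (gene ID 361074) were 5277, 5149 and 5019 in obese rosiglitazone rats and 5179, 4389 and 4658 in obese control rats, against 8048, 8076 and 6762 in lean rosiglitazone rats and 7809.9, 7591 and 7006 in lean control rats. The highest obese signal was below the lowest lean one. On the log2 scale Slc25a30 fell by 0.66 (SE 0.091, adjusted p = 0.00111) on control diet, by 0.56 (SE 0.091, adjusted p = 0.00344) on rosiglitazone and, over both diets, by 0.61 (SE 0.064, adjusted p = 4.4e-05). Its second probe set gave -0.60 (adjusted p = 0.00223) over both diets, -0.67 (0.0205) on rosiglitazone and -0.52 (0.068) on control diet, and its obese and lean rats did not overlap either. Slc25a14 and Slc25a27, known mainly from the brain, had -0.19 and -0.03 over both diets (adjusted p = 0.491 and 0.941), with the signals of Slc25a27 between 130.3 and 333 over the 12 rats.

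The carriers of ATP-Mg and of other adenine nucleotides were the one substrate group whose called members were all higher in obese rats. Of its 6 tested genes, 3 were called higher over both diets and 0 lower (50%, against 16.3% of all genes called either way). Its estimates were split, with 3 above 0 and 3 below. Slc25a24 exchanges ATP-Mg for phosphate when cytosolic calcium rises and so sets the adenine nucleotide content of the matrix. The signals of Slc25a24 (gene ID 310791) were 967, 766 and 767 in obese rosiglitazone rats and 852, 779 and 791 in obese control rats, against 451, 448 and 505 in lean rosiglitazone rats and 526, 572 and 555 in lean control rats. All 6 obese rats lay above all 6 lean rats, and obese rosiglitazone 1 was the highest. Slc25a24 rose by 0.54 (SE 0.12, adjusted p = 0.0193) on control diet, by 0.80 (SE 0.12, adjusted p = 0.00181) on rosiglitazone and by 0.67 (SE 0.083, adjusted p = 0.000155) over both diets, a rise of 59.3%. The call on control diet was lost without any one of the 3 obese control arrays or without lean control 1 (adjusted p = 0.0625 to 0.0753), and with arrays centred on their medians (0.0621).

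Slc25a23, a paralog of Slc25a24 with the same exchange, had signals of 1586, 1608 and 1527 in obese rosiglitazone rats and 1259.7, 1697 and 1296 in obese control rats, against 1243, 1211 and 1338 in lean rosiglitazone rats and 1198, 1179 and 1184 in lean control rats. The groups did not overlap within either diet, and the gene rose by 0.28 (SE 0.077, adjusted p = 0.0269) over both diets. Slc25a16, whose relative in yeast is needed for the coenzyme A content of mitochondria, had 1053, 1476 and 1402 in obese rosiglitazone rats and 1229, 1549.5 and 1258 in obese control rats, against 1145, 1094 and 975 in lean rosiglitazone rats and 1122, 971 and 799.6 in lean control rats. Its groups overlapped on rosiglitazone, and it rose by 0.38 (SE 0.11, adjusted p = 0.0289) over both diets. The second tested probe set of Slc25a23 overlapped, with signals of 68.9 to 414 in obese rats and 111 to 308 in lean rats. With a covariate for spike-in class the call for Slc25a23 was lost (adjusted p = 0.127). The call was lost too in the mean over its probe sets (0.41, adjusted p = 0.221), with arrays centred on their medians (0.0727) and without eBayes trend and robust options (0.0521). It was also lost without obese rosiglitazone 2, obese control 2, lean rosiglitazone 1, lean rosiglitazone 2 or lean control 2 (adjusted p = 0.0506 to 0.0608). The call for Slc25a16 was lost without obese rosiglitazone 2, obese rosiglitazone 3, obese control 2, lean rosiglitazone 3 or lean control 3 (0.0601 to 0.0792). That call was lost too with arrays centred on their medians (0.0721) and without eBayes trend and robust options (0.0539).

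The third calcium-regulated paralog, Slc25a25, had an estimate of the other sign and was not called. Its signals were 2113, 2509 and 1607 in obese rosiglitazone rats and 1866, 1148 and 1917 in obese control rats, against 2918, 2627 and 1626 in lean rosiglitazone rats and 3022, 2542 and 2435 in lean control rats. This was the widest spread of a tested member, with the highest signal 2.63 times the lowest, against 1.23 times for Slc25a36 at the narrow end. The log2 change of Slc25a25 was -0.45 over both diets (SE 0.17, adjusted p = 0.0933). Slc25a42, the coenzyme A carrier, had -0.33 (adjusted p = 0.054) and the peroxisomal Slc25a17 -0.11 (0.364).

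The ADP/ATP exchangers and the phosphate carrier feed ATP synthesis. Of their 3 tested genes, 1 was called over both diets, against 16.3% of all genes. Slc25a5, a form found in most tissues, had 11573, 12439 and 13163 in obese rosiglitazone rats and 14170.2, 12518 and 12338 in obese control rats, against 17051, 15819.6 and 14669.5 in lean rosiglitazone rats and 16129, 15186 and 13058 in lean control rats. Obese and lean rats did not overlap on rosiglitazone and overlapped on control diet. Slc25a5 fell by 0.35 (SE 0.096, adjusted p = 0.0481) on rosiglitazone and by 0.27 (SE 0.068, adjusted p = 0.0167) over both diets. The size depended on the scaling, since quantile normalization moved the change to -0.09 on rosiglitazone (adjusted p = 0.367) and to -0.04 over both diets (0.562). On rosiglitazone the call was also lost without any obese rosiglitazone array or without lean rosiglitazone 1 or 2 (0.0768 to 0.168) and with a covariate for spike-in class (0.0906), and over both diets without obese control 3 (0.05). Slc25a4, the heart and muscle form, had -0.24 over both diets (SE 0.081, adjusted p = 0.0614), and the phosphate carrier Slc25a3 had -0.15 (SE 0.069, adjusted p = 0.18). Slc25a31, the testis form, was among the dim genes, with signals between 11.2 and 189.

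Among the carriers of di- and tricarboxylates, 2 of 5 tested genes were called lower over both diets and 0 higher (40%, against 16.3% of all genes called either way). On either diet alone 0 of the 5 were called. Slc25a10 exchanges malate and succinate for phosphate, and Slc25a11 exchanges oxoglutarate for malate in the malate-aspartate shuttle. The signals of Slc25a10 were 2694, 3087 and 3002 in obese rosiglitazone rats and 2798, 2601 and 2865 in obese control rats, against 3469.6, 3458 and 3679 in lean rosiglitazone rats and 3522, 3382 and 2852 in lean control rats. Only lean control 3 among the lean rats lay within the obese range. Slc25a10 fell by 0.25 (SE 0.066, adjusted p = 0.0202), a call that was lost without obese control 2 or lean control 1 (adjusted p = 0.0529 to 0.0567) and with a covariate for spike-in class (0.0784). The call was lost too with arrays centred on their medians (0.0564) and without eBayes trend and robust options (0.0539). The second probe set of Slc25a10 had an estimate above 0, 0.18 (adjusted p = 0.5), and the mean over both gave -0.04 (0.837).

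Slc25a11 had 3688, 4272 and 4211 in obese rosiglitazone rats and 3865, 4135 and 4084 in obese control rats, against 4921, 5327 and 4179 in lean rosiglitazone rats and 5439, 4914 and 4578 in lean control rats. Lean rosiglitazone 3 overlapped the obese rats. Slc25a11 fell by 0.27 (SE 0.072, adjusted p = 0.0218), and the call was lost without obese rosiglitazone 1, lean rosiglitazone 2 or lean control 1 (0.0515 to 0.0563), with quantile normalization (0.0696) and with a covariate for spike-in class (0.0937). The same held with arrays centred on their medians (0.0718) and without eBayes trend and robust options (0.0574). The citrate carrier Slc25a1, which exports citrate for fatty acid synthesis, had -0.05 (SE 0.068, adjusted p = 0.705), and the less well known Slc25a34 and Slc25a35 had 0.11 (0.659) and -0.23 (0.166).

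None of the 3 tested carriers of aspartate and glutamate was called. Slc25a13, an aspartate/glutamate exchanger of the malate-aspartate shuttle, had -0.21 over both diets (SE 0.069, adjusted p = 0.0572), and its second probe set had -0.35 (0.1). Its paralog Slc25a12 had 0.06 (0.721) and the glutamate carrier Slc25a22 0.07 (0.734). Among the carriers of other amino acids, the glycine carrier Slc25a38, needed for haem synthesis, had 1007, 888 and 893 in obese rosiglitazone rats and 866, 876 and 914 in obese control rats, against 1033, 1058 and 1031 in lean rosiglitazone rats and 1081, 1048 and 1086 in lean control rats. Obese rats lay below lean rats within each diet. Slc25a38 fell by 0.22 (SE 0.064, adjusted p = 0.0352), a call that was kept only without obese rosiglitazone 1 or lean rosiglitazone 3 and was lost without any one of the other 10 arrays (0.0515 to 0.081) and with a covariate for spike-in class (0.0729). The branched-chain amino acid carrier Slc25a44 had -0.03 (0.85) and, by its second probe set, 0.07 (0.773), and Slc25a48, a carrier needed for choline import, had -0.18 (SE 0.19, adjusted p = 0.594) with signals between 1351 and 3075.

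The carriers of iron, glutathione and cofactors gave no call over both diets. The mitoferrins Slc25a28 and Slc25a37, which bring iron into the matrix, had -0.09 (SE 0.09, adjusted p = 0.569) and 0.10 (0.666). Slc25a39, which imports glutathione, had -0.11 (SE 0.055, adjusted p = 0.202), while its second probe set had 0.41 (0.0618), the opposite sign. The pyrimidine nucleotide carriers Slc25a36 and Slc25a33 had -0.0003 (SE 0.066, adjusted p = 0.998) and 0.05 (0.835). Slc25a46 and Slc25a45, whose substrates are absent or not settled, had -0.11 (SE 0.069, 0.343) and -0.22 (0.276). Slc25a51l1, a symbol that was on no substrate list, had -0.34 (0.0677). The second probe sets of Slc25a36 and Slc25a46 were on the other side of 0, at 0.25 (0.181) and 0.22 (0.251).

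**Figure D3:**
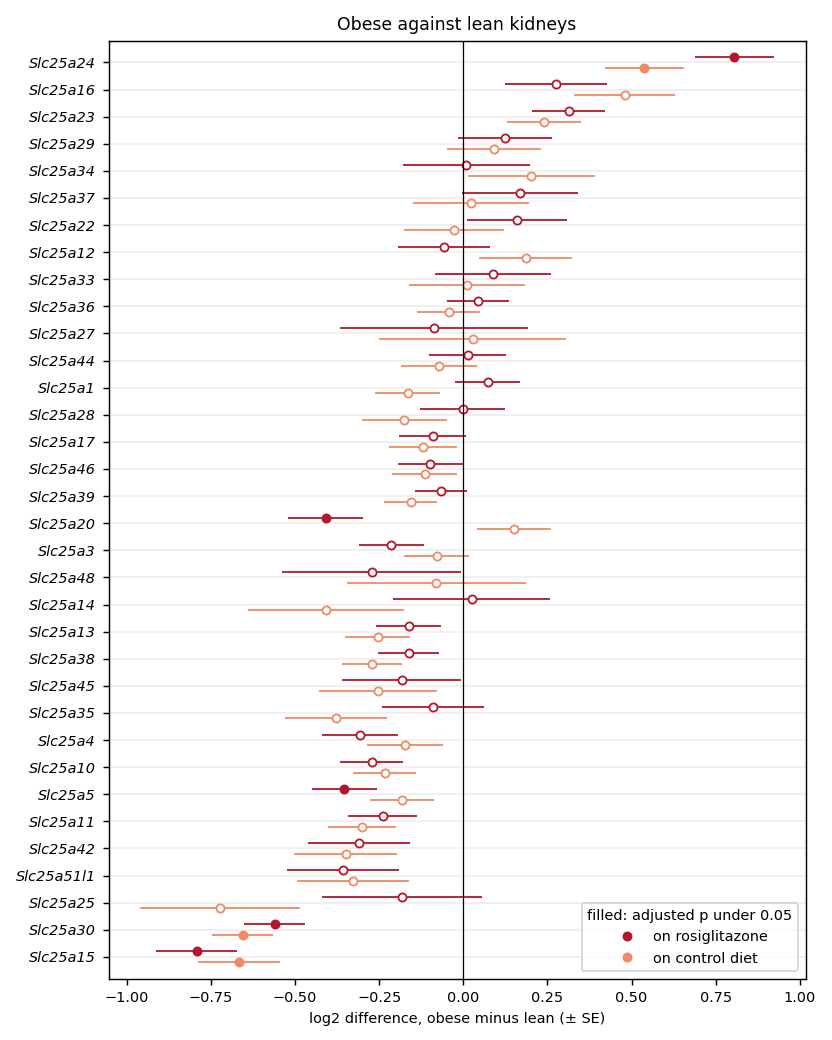
Log2 differences, obese minus lean, of the 34 tested Slc25a genes on rosiglitazone (dark red) and on control diet (orange), with bars of 1 SE; filled points have an adjusted p under 0.05. Slc25a15 and Slc25a30 lie lowest among the filled points and Slc25a24 highest, and Slc25a20 has estimates on either side of 0.

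The carnitine/acylcarnitine carrier Slc25a20 brings fatty acids into the matrix for oxidation. It had 704, 861 and 816 in obese rosiglitazone rats and 1011, 1000.3 and 1048 in obese control rats, against 1042, 1158 and 974 in lean rosiglitazone rats and 976, 956 and 826 in lean control rats. The 3 obese rosiglitazone rats lay below the lean rosiglitazone rats, while the 3 obese control rats lay above the lean control rats. Slc25a20 fell by 0.41 (SE 0.11, adjusted p = 0.0484) on rosiglitazone, and on control diet its log2 change was 0.15 (SE 0.11, adjusted p = 0.509). The call on rosiglitazone was lost without any obese rosiglitazone array or without lean rosiglitazone 1 or 2 (0.0654 to 0.167), with a covariate for spike-in class (0.161) and with arrays centred on their medians (0.149). Over both diets the log2 change was -0.13 (SE 0.078, adjusted p = 0.309).

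Rosiglitazone gave no call for any Slc25a gene in obese rats, in lean rats or over both body types, and these comparisons had few calls over all genes. In obese rats 0 of 34 were called, against 0.105% of all genes, in lean rats 0 of 34 against 0.0095%, and over both body types 0 of 34 against 0.0855%. At an unadjusted p under 0.05 the counts were 1, 0 and 0, against 5.66%, 4.52% and 5.59% of all genes. The diets did not overlap for 2 of the 34 genes in obese rats (5.88%, against 13.3% of all genes), for 2 in lean rats (5.88% against 8.35%) and for 0 in both (0% against 0.665%). The rosiglitazone estimate in obese rats lay between -0.36 for Slc25a20 and 0.35 for Slc25a25. The smallest p there belonged to Slc25a20, at -0.36 (SE 0.11, adjusted p = 0.611), and all 3 obese rosiglitazone rats lay below the 3 obese control rats. The next were Slc25a35 at 0.24 (SE 0.15) and Slc25a23 at 0.16 (SE 0.11), both at an adjusted p of 0.999. The 95% interval of the log2 change stayed within 0.5 of 0 for 25 of the 34 genes, the lowest bound was -0.62 for Slc25a34 and the highest 0.86 for Slc25a25.

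In lean rats the rosiglitazone estimates lay between -0.23 for Slc25a24 and 0.27 for Slc25a27. The smallest p belonged to Slc25a24 at -0.23 (SE 0.12), Slc25a20 at 0.20 (SE 0.11) and Slc25a1 at -0.13 (SE 0.096), all at an adjusted p of 0.981. The 95% interval stayed within 0.5 of 0 for 29 of 34 genes. Over both body types the smallest p belonged to Slc25a23 at 0.13 (SE 0.077), Slc25a10 at 0.11 (SE 0.066) and Slc25a15 at -0.11 (SE 0.086), all at an adjusted p of 0.999, and 32 of 34 intervals stayed within 0.5 of 0.

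**Figure D4:**
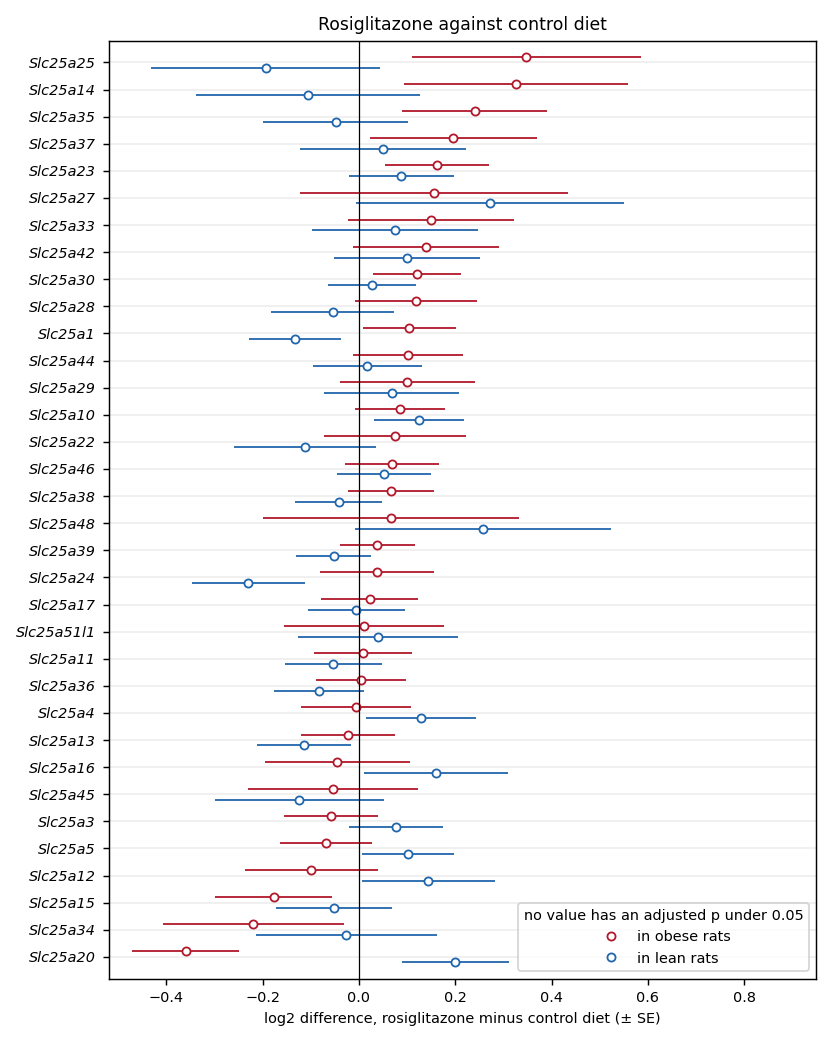
Log2 differences, rosiglitazone minus control diet, of the 34 tested Slc25a genes in obese rats (red) and lean rats (blue), with bars of 1 SE; all points are open because none has an adjusted p under 0.05. Slc25a20 is at the bottom, with -0.36 in obese rats and 0.20 in lean rats.

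The difference between body types in the rosiglitazone effect was tested as an interaction, and 0 of 34 genes were called, against 0% of all genes. At an unadjusted p under 0.05 there was 1 gene (2.94%, against 4.6% of all genes), Slc25a20, with an interaction of -0.56 (SE 0.16, 95% interval -0.90 to -0.22, adjusted p = 0.987). The next smallest p belonged to Slc25a1 at 0.24 (SE 0.14) and Slc25a25 at 0.54 (SE 0.34), both at an adjusted p of 0.992. For the carriers called on both diets, the interval of the interaction was -0.49 to 0.24 for Slc25a15, -0.09 to 0.62 for Slc25a24 and -0.18 to 0.37 for Slc25a30, so the differences between obese and lean rats on the diets were not distinguished from each other.

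**Figure D5:**
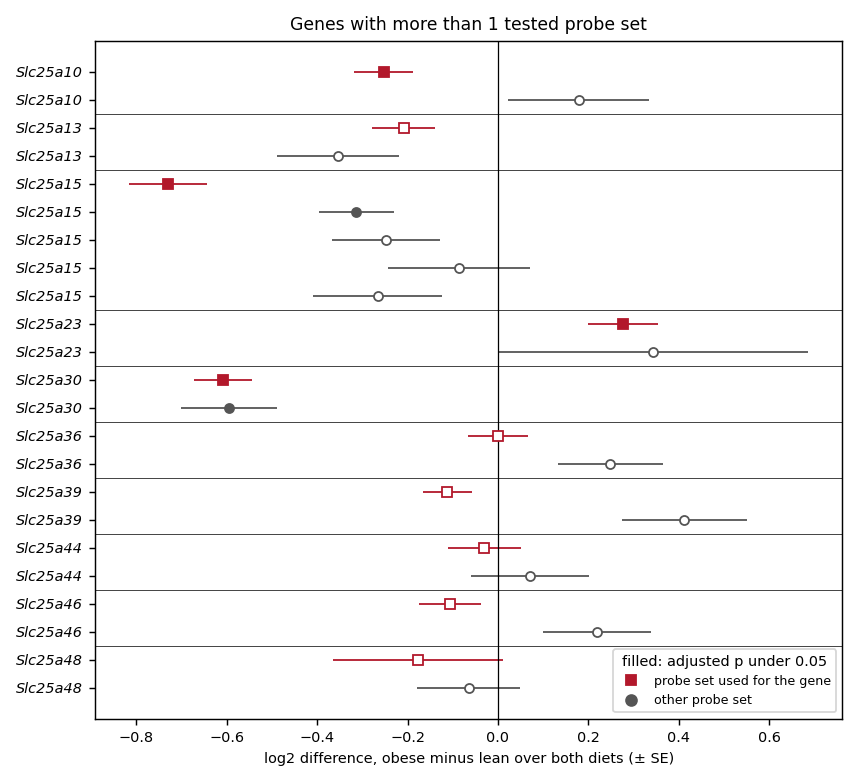
Log2 differences, obese minus lean over both diets, for each tested probe set of the genes with more than 1 tested probe set, with bars of 1 SE; squares are the probe sets used in the text, circles the others, and filled symbols have an adjusted p under 0.05. The 2 probe sets of Slc25a30 lie close together, the 5 of Slc25a15 all lie below 0 at different distances, and those of Slc25a10, Slc25a36, Slc25a39, Slc25a44 and Slc25a46 lie on opposite sides of 0.

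Of the carriers outside the Slc25a symbols, Ucp1, Ucp2, Ucp3, Mtch1, Mtch2, Mpc1 and Mpc2 were tested. Over both diets 1 was called higher and 1 lower (28.6%, against 16.3% of all genes). Ucp2, an uncoupling protein relative found in many tissues, had 1445 ± 137 in obese rosiglitazone rats and 1661 ± 55.0 in obese control rats, against 949 ± 23.9 in lean rosiglitazone rats and 1162 ± 252 in lean control rats (mean ± SD, n = 3 each), a rise of 0.56 on the log2 scale (SE 0.096, adjusted p = 0.00161). Ucp1, the heat-producing carrier of brown fat, fell (adjusted p = 3.61e-06). Its signal was 79.1, 132 and 219.8 in obese rosiglitazone rats and 32.8, 6.87 and 4.11 in obese control rats, against 2357, 5435 and 1535 in lean rosiglitazone rats and 803, 632 and 894 in lean control rats. The obese control signals lay below 59.65, the highest signal of the bacterial trp control probe sets. Ucp1 was the one of these 7 carriers called for rosiglitazone, higher over both body types (adjusted p = 0.0456). The subunits of the pyruvate carrier, Mpc1 and Mpc2, were not called.

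Of 36 enzymes and steps next to the carriers, 31 were tested, and 6 fell and 0 rose over both diets, which is 19.4% against the 16.3% of all genes. Besides Oat these were glutamate dehydrogenase Glud1 (-0.45, SE 0.068, adjusted p = 0.000729), malic enzyme Me1 (-0.49, SE 0.079, 0.00115), the haem synthesis enzyme Alas1 (-0.72, SE 0.15, 0.00673), isocitrate dehydrogenase Idh1 (-0.27, 0.0239) and malate dehydrogenase Mdh2 (-0.20, 0.0456). Of the 9 measured genes for import and insertion of carriers, such as Timm22 and Tomm70, 0 were called over both diets, and 3 had an unadjusted p under 0.05 (33.3%, against 30.5% of all genes).

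Markers of tubule segments moved with body type too. The summed signal of 6 proximal tubule markers was 35282 to 36855 in obese rosiglitazone rats and 37105 to 42091 in obese control rats, against 46302 to 50701 in lean rosiglitazone rats and 45396 to 54180 in lean control rats. Over both diets 5 of the 6 fell (Slc34a1, Lrp2, Cubn, Slc22a6 and Aqp1) and 1 rose (Slc5a2, adjusted p = 0.0414). Slc5a2 was not called on control diet (0.116) or on rosiglitazone (0.361). Its signal lay below 59.65, the highest trp control signal, in lean rosiglitazone 1 and 2 and lean control 1 and 2. In lean rosiglitazone 3 and lean control 3, the lean arrays of the lower spike-in class, it was 667 and 502. The summed signal of 4 distal and collecting duct markers was higher in obese rats. In obese rosiglitazone rats it was 29796 to 33267 and in obese control rats 29877 to 33810. In lean rosiglitazone rats it was 25055 to 25957 and in lean control rats 20381 to 26874. Of the 4, 2 were called higher over both diets (Slc12a3 and Aqp3). Calb1 (0.53, adjusted p = 0.134) and Aqp2 (0.06, 0.661) were not called. The mean of Calb1 was 10705 in obese control rats and 6537 in lean control rats, with lean control 2 at 3156. The 3 markers of the thick ascending limb were all called over both diets and went both ways, with Umod lower (-0.27, adjusted p = 0.0171) and Slc12a1 (0.23, 0.0496) and Kcnj1 (0.52, 0.0168) higher. Their summed signal overlapped, at 25455 to 28616 in obese rosiglitazone rats and 26163 to 27772 in obese control rats, against 26397 to 31242 in lean rosiglitazone rats and 25147 to 30375 in lean control rats. In whole tissue, fewer cells of a type and less RNA per cell cannot be told apart. The part of these markers in the falls of Slc25a15 and Slc25a30 and the rise of Slc25a24 was not tested.

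Fat markers also differed. The 6 brown fat markers summed to 747 to 1200.3 in obese rosiglitazone rats and 635 to 701 in obese control rats, against 4239 to 10986 in lean rosiglitazone rats and 1476 to 2511 in lean control rats, with Dio2 and Elovl3 at background in all groups and 3 of 4 tested lower (Ucp1, Cidea and Cox8b). The 5 white fat markers measured summed to 3803 to 5243 in obese rosiglitazone rats and 1054 to 1705 in obese control rats, against 6241 to 10595 in lean rosiglitazone rats and 2329.9 to 4245 in lean control rats, with 4 lower over both diets. The white fat marker Fabp4, a fatty acid binding protein, was also called for rosiglitazone, higher by 3.03 on the log2 scale in obese rats (adjusted p = 0.0185) and by 2.42 over both body types (0.00324). The sums of the obese groups differed mainly by Fabp4, with means of 3250 on rosiglitazone and 403 on control diet. The other means, in the same order, were 586 and 500 for Adipoq, 381 and 328 for Plin1, 102 and 73.1 for Cfd, and 69.1 and 75.8 for Lep. Of these, Lep was too dim to test and the others were not called for rosiglitazone in obese rats. Erythroid markers, which matter for the mitoferrin Slc25a37, summed to 8911 to 14653 in obese rosiglitazone rats and 7055 to 9740 in obese control rats, against 4211 to 7796 in lean rosiglitazone rats and 7028 to 11426 in lean control rats, with 2 of 3 tested higher over both diets (Hbb and Alas2). On rosiglitazone Hbb was higher by 1.55 (adjusted p = 0.0163) and Alas2 by 1.20 (0.0194). On control diet neither was called, at -0.05 (0.96) and 0.29 (0.603). Slc4a1, the third tested, had -0.16 over both diets (0.27). Among markers of muscle, adrenal cortex, leukocytes and podocytes, 0 of 7 tested were called over both diets, and 1 had an unadjusted p under 0.05. Their part in the carrier changes was not tested either.

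The comparison of obese with lean rats was repeated among arrays of 1 class of the spike-in signal. The lower class held 1 lean array on each diet and the higher class 1 obese array, on control diet, so a lone array was taken to vary like the rest, and values on a single diet are given without a test. Within the lower class, over both diets, Slc25a30 was at -0.51 (adjusted p = 0.00536), Slc25a15 at -0.85 (0.00782) and Slc25a24 at 0.59 (0.037). The other 6 genes called over both diets did not pass there, with log2 changes of -0.16 for Slc25a5, -0.20 for Slc25a10, -0.10 for Slc25a11, 0.28 for Slc25a23, 0.60 for Slc25a16 and -0.21 for Slc25a38. On control diet the lower class gave -0.63 for Slc25a30, -0.73 for Slc25a15 and 0.49 for Slc25a24, and the higher class gave -0.57, -0.63 and 0.62. On rosiglitazone, where the higher class held no obese rat, the lower class gave -0.39 for Slc25a30, -0.96 for Slc25a15 and 0.70 for Slc25a24.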

How the data were processed

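Kidney RNA was measured on 12 arrays in a study of 12 rats, and the precision is limited by that number. The authors deposited linear signal intensities made with MAS5, per the submitters' processing notes, which give no version. Scanner settings and the scaling target were not given in the sources used here. Per the labels, Trizol was used for extraction and biotin as the label. The deposited table was used without further normalization. Its 57 control probe sets were set aside, and of the other probe sets 20826 had 1 gene symbol, 436 had several and 9780 were unnamed here. Symbols come from the platform annotation, and all 40 Slc25a gene IDs were found in the GRCr8 gene table with 0 symbols changed. The 2 probe sets with 2 Slc25a51 gene IDs were not used.

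An offset of 16 was added before log2, and probe sets with a mean log2 below the 40th percentile (7.321) were dropped. The 4 group means were fitted over all 12 arrays with limma 3.58.1 (statmod 1.5.0, R 4.3.3), leaving 8 residual degrees of freedom, with eBayes using trend and robust options. Within each of 7 comparisons, p-values were adjusted by Benjamini-Hochberg over all retained probe sets, so no adjustment was made over the carriers alone. Background percentages use 1 probe set per gene. The fit was tested on simulated data: of 50 probe sets changed 1.5-fold between obese and lean rats on control diet, 26% were called, and 66% of 50 changed 2-fold.

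Genes with full statistics were those called in any comparison, the 3 of smallest p in each comparison, and the gene of highest mean signal in each substrate list. The members and lists were chosen with earlier results of these data known. Alternatives were other offsets (1 and 64), filters, scalings, eBayes settings, probe set rules, spike-in classes, the replicate number as a block, 2-group fits and leaving out each array. The replicate numbers of the titles were not used as pairs in the main fit. Across groups, deviations of same-numbered arrays correlated at -0.179 to 0.182 (median 0.0697). Arrays of different number correlated at -0.223 to 0.214 (median -0.0234). These values cannot show whether the numbers stand for a pairing of rats.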

Additional observations from a re-analysis of the deposited data

How the results depend on the processing

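The falls of Slc25a15 and Slc25a30 and the rise of Slc25a24 over both diets kept their direction under all alternatives run, and they kept their calls except that Slc25a15 was lost in the mean over its probe sets (-0.30, adjusted p = 0.0537). No array, left out alone, ended these 3 calls over both diets. The number of Slc25a genes called on control diet was 3, with 2 to 4 when 1 array was left out, 1 among the arrays of low spike-in signal and 0 among those of high signal. With arrays centred on their medians it was 2 (0 higher and 2 lower, against 1 higher and 2 lower), and over all probe sets 516 were called (179 higher) against 882 (401 higher). On rosiglitazone it was 5, with 3 to 5 when 1 array was left out (3 without obese rosiglitazone 1, 2 or 3 or lean rosiglitazone 1 or 2), 3 with no filter, with median centring, without eBayes trend and robust options, with a covariate for spike-in class, with the mean over probe sets and with only the 2 groups fitted, and 1 within the lower spike-in class. Over both diets it was 9, with 5 to 11 when 1 array was left out (5 without obese control 2), 3 with median centring, 4 without trend and robust options and 4 within the lower spike-in class. With a covariate for spike-in class it was 6 (5 of them among the 9), without Slc25a10, Slc25a11, Slc25a23 and Slc25a38. The counts within a spike-in class rest on groups of 1 array, which was taken to vary like the rest. With the replicate number as a replicate block the counts were 3 on control diet, 4 on rosiglitazone and 8 for the diets together, and 3 of 12 arrays correlated best with an array of their own number. The rosiglitazone and interaction counts stayed at 0 under all alternatives. The rosiglitazone estimate of Slc25a23 in obese rats changed sign to -0.11 in the mean over its probe sets, against 0.16. The median change of the carriers between obese and lean rats was below 0 in 21 of 21 settings on control diet, 20 of 20 on rosiglitazone and 25 of 25 over both diets. These counts include the main fit and a probe set rule, the highest mean linear signal, that chose the same probe sets. The settings share arrays, so they are not separate tests. The cause of the shifts between settings was not tested.

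Dim probe sets limit what can be said of 6 carriers that did not pass the filter. In the simulated data, 26% of probe sets changed 1.5-fold, 66% changed 2-fold and 76% changed 4-fold were called on control diet, with 3 rats per group. Over both diets these were 56%, 78% and 82%. The simulation changed 50 probe sets at each size, fewer in sum than the 882 called on control diet, and held no rosiglitazone effect. Its percentages therefore do not carry over directly to the data.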
